A study of Mus musculus with 12 samples.

Results

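Messenger RNA levels of 6 genes, Dppa2, Dppa4, Dppa3, Tcl1, Zfp57 and Dppa5a, were followed while mouse embryonic stem cells left the naive state. The genes were picked by name, with earlier results of these data known. They comprise some of the developmental pluripotency-associated (Dppa) genes, but not Dppa1, together with Tcl1 and Zfp57. They are 6 of 47729 genes in the table, and all 6 were among the 13981 genes that reached 1 FPKM in at least 2 libraries. FPKM are fragments per kilobase of transcript, set to an effective size of each library. The delta cells (delta 0.7 in the labels) are E14Tg2a embryonic stem cells of strain 129/Ola that lack, on both alleles, a regulatory region of Tcf15, whose product is a transcription factor of the basic helix-loop-helix class. The WT cells are the unmodified E14Tg2a line. All delta columns carry the same clone tag, so genotype and clone cannot be told apart. Each genotype was sampled at 0 h, in serum-free N2B27 medium with 2i and LIF, and after 12 and 24 h of induction, when it grew in N2B27 to which Activin, KOSR and bFGF were added, on a fibronectin coat. Each of the 6 groups had 2 libraries. The labels do not describe the replicates as separate cultures, so p-values measure only the spread between these libraries, which may be technical.

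Naive mouse embryonic stem cells resemble the preimplantation epiblast, and the induction used here moves them towards epiblast-like cells, a formative state. Several genes first found through their restriction to pluripotent and germ cells act on chromatin or on DNA methylation. DPPA2 and DPPA4 are SAP-domain proteins that bind chromatin as a heterodimer and activate 2-cell-stage genes through Dux in mouse stem cells. DPPA3, also called Stella, binds UHRF1 and limits maintenance DNA methylation. ZFP57 is a KRAB zinc finger protein that binds methylated imprinting control regions and recruits TRIM28. TCL1 binds AKT kinases and increases their activity, and DPPA5A is an RNA-binding protein with a KH domain.

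Promoters are shown for Tcl1 and Zfp57, since only these 2 of the 6 genes matched the RefSeq promoter table. Its windows (GRCm38.p6) run from 250 bases before to 50 after the start. Capitals mark CANNTG, the E-box letters that basic helix-loop-helix proteins as a class recognise; the motif reads the same on both strands. The Tcl1 window is chr12:105222688-105222987 on the minus strand, and the Zfp57 window, the first of 3 RefSeq starts, is chr17:37000913-37001212 on the plus strand.
Tcl1: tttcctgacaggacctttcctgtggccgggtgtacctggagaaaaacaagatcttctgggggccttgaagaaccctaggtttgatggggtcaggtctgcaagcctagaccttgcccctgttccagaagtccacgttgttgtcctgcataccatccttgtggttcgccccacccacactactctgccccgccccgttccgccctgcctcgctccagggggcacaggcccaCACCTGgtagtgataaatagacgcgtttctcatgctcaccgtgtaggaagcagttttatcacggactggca
Zfp57: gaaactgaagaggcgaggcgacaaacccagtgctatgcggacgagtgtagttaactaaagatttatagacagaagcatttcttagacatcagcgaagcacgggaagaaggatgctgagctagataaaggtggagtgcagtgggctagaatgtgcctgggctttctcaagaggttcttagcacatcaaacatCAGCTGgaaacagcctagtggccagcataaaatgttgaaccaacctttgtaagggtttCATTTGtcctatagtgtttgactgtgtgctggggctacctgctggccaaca
The Tcl1 window held 1 match, CACCTG, which begins 21 bases before the first transcribed base of RefSeq, 105222737. The gene as placed below starts further upstream, at 105222793, so the match lies inside that annotated gene. The Zfp57 window held 2, CAGCTG and CATTTG, and the windows of the other 2 Zfp57 starts held 3 and 0. Matches occurred in 72.3% of the 32851 RefSeq promoter windows of this length, with a mean of 1.39 per window. The Tcl1 window also held 2 matches to GGGCGG on either strand, found in 35.7% of windows. The Zfp57 window held 1 match to TATAAA on either strand, found in 13.6%. That match is the reverse complement, TTTATA, so TATAAA itself does not stand in the printed strand.

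Tcf15 stood at 2.16 and 1.05 FPKM in delta cells and at 9.16 and 3.45 FPKM in WT cells at 0 h. At 24 h it stood at 4.44 and 2.76 FPKM in delta cells and at 99.4 and 55.4 FPKM in WT cells, so the libraries fitted their labels. Depth, recovered from the FPKM steps, was 9741007 to 17571453 reads per library. The 6 genes held from 90 (Dppa3) to 35591 (Dppa5a) reads in a library. The library size used by the FPKM was 75.5% of reads in delta 0 h replicate 1 and 92.2% in WT 0 h replicate 1. In the other libraries it was 99.7% to 107%. FPKM in those 0 h replicate 1 libraries are thus higher than depth alone would give. The 0 h replicate 1 libraries of both genotypes stood apart: ribosomal protein genes took 13.6% of reads in delta and 11.6% in WT, against 5.82% to 7.59% in the other 10 libraries. Replicates of the 0 h groups also differed most, with an SD of their log2 difference over genes of 0.83 in delta and 0.66 in WT. That SD was 0.31 to 0.42 for the 4 induced groups. Mitochondrial genes took 0.447% to 0.647% of reads in every replicate 1 library and 1.80% to 2.87% in every replicate 2 library. The source of this split was not tested, and the main fit below held no term for the replicate number. Fibroblast markers (7 of 13 listed genes tested) summed to 27.8 and 31.5 FPKM in delta cells and 33.8 and 84.4 FPKM in WT cells at 24 h, and at 0 h to 120.4 and 147 FPKM in delta cells and 65.4 and 157.6 FPKM in WT cells. Their part in the time and genotype differences was not tested. Primitive endoderm markers summed to at most 4.24 FPKM in a delta library and 5.57 FPKM in a WT library, with 1 of 12 genes tested. Trophoblast markers summed to 25.2 to 58.6 FPKM in delta libraries and 34.3 to 60.1 FPKM in WT libraries.

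At 0 h the order of FPKM levels in delta cells ran from Dppa5a through Tcl1, Zfp57, Dppa4 and Dppa3 to Dppa2, and only the Dppa4 and Dppa3 ranges overlapped. In WT cells at 0 h the order was Dppa5a, Tcl1, Zfp57, Dppa3, Dppa4 and Dppa2, and the Zfp57 range overlapped those of Tcl1 and Dppa3. At 24 h both genotypes had the same order, Dppa5a, Dppa4, Zfp57, Dppa2, Tcl1 and Dppa3, with no overlap between neighbours. Dppa2 thus moved from the lowest place and Dppa3 took it.

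**Figure D1:**
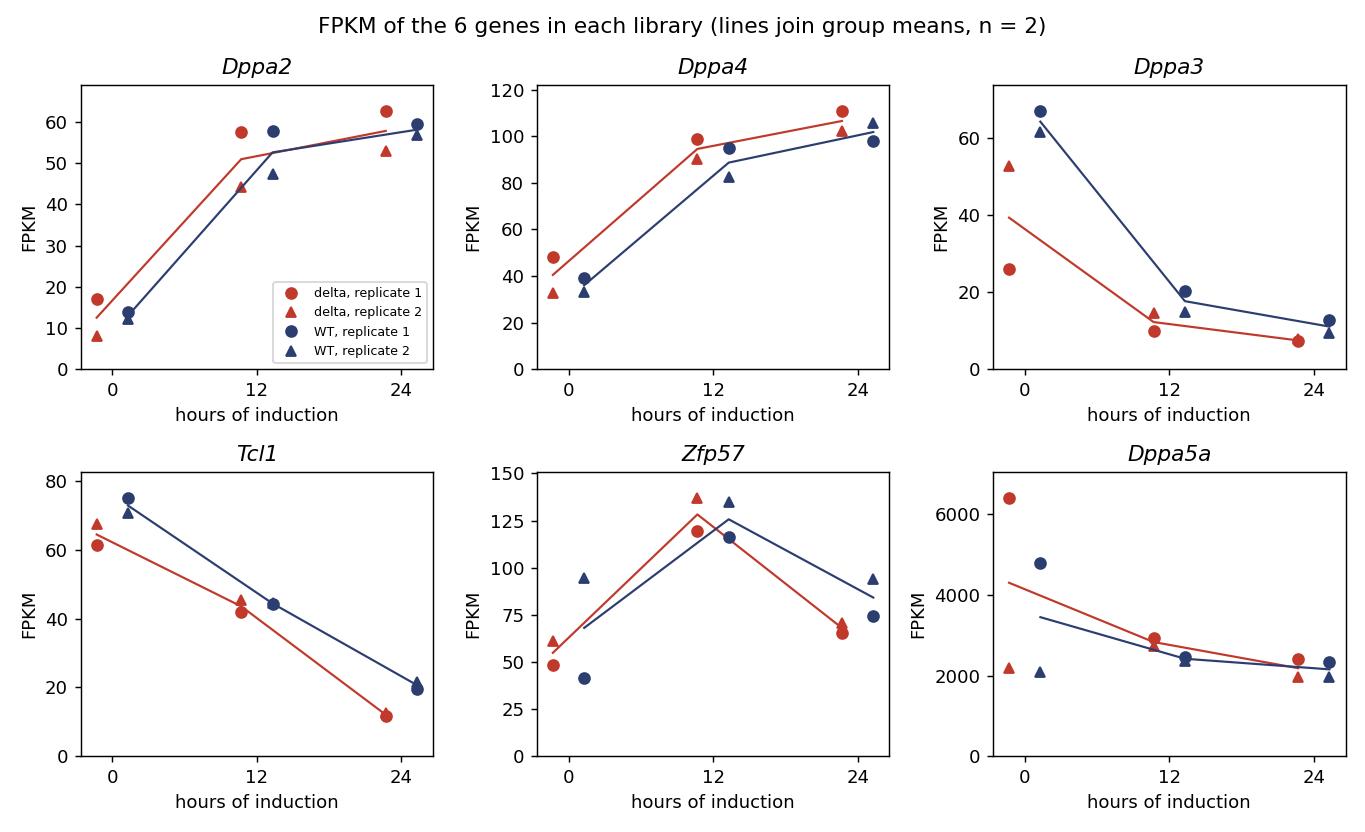
FPKM of each gene in each library against hours of induction, with delta (red) drawn left of WT (blue); circles are replicate 1, triangles replicate 2, and lines join group means of 2 libraries. Dppa2 and Dppa4 rise, mostly by 12 h, Dppa3 and Tcl1 fall, Zfp57 is highest at 12 h, and the Dppa5a points at 0 h lie far apart (6411 and 2188 FPKM in delta, 4800 and 2094 FPKM in WT).

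Time was compared within each genotype to ask how the genes change during induction. A limma fit over all 13981 genes, on the log2(FPKM + 1) scale, called a gene at a Benjamini-Hochberg adjusted p under 0.05. From 0 to 24 h, 4 of the 6 genes were called in delta cells, against 15.4% of all genes, and 4 in WT cells, against 10.2%. Since the genes were chosen with earlier results of these data known, such counts describe them and do not test for enrichment. In both genotypes Dppa2 and Dppa4 rose and Dppa3 and Tcl1 fell. These 4 calls held in each genotype without any 1 of the 12 libraries. From 0 to 12 h, 3 of the 6 genes were called in delta cells, against 7% of all genes, and 4 in WT cells, against 4.03%. With the replicate number as a block, 5 genes were called in delta cells at 12 h, since Tcl1 (adjusted p = 0.0392) and Zfp57 (adjusted p = 0.0198) joined; the block raised the calls over all genes to 1605 in delta and 989 in WT, against 979 and 563 without it. From 12 to 24 h, 1 gene, Tcl1, was called in delta cells, against 1.36% of all genes, and again Tcl1 alone in WT cells, against 0.408%.

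**Figure D2:**
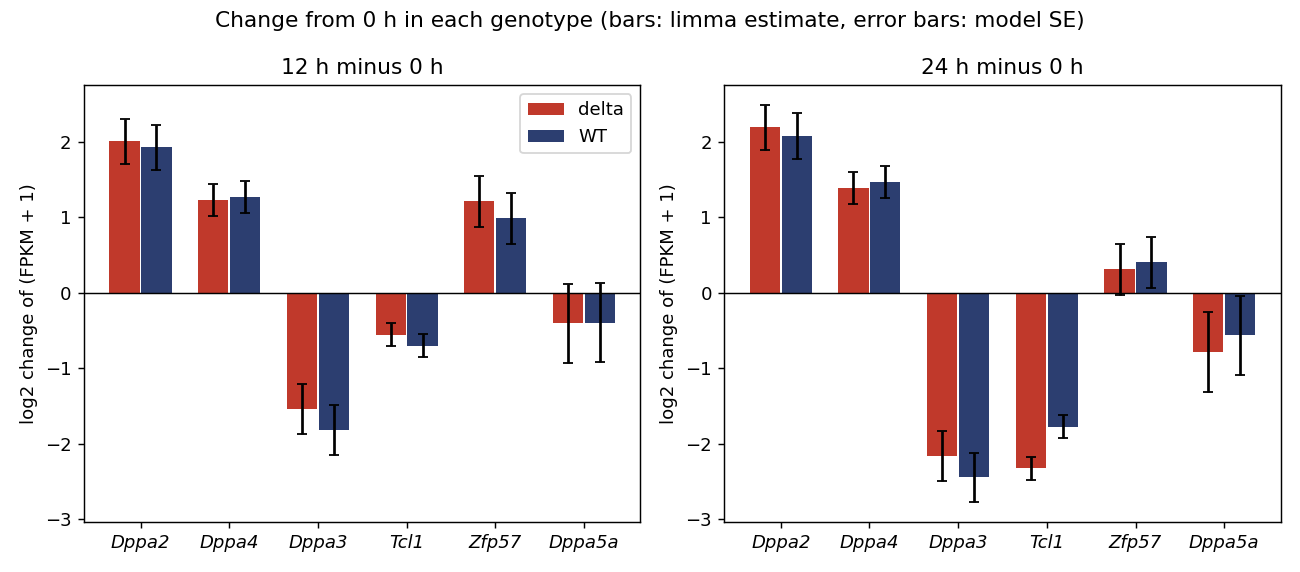
Change from 0 h on the log2(FPKM + 1) scale at 12 h (left) and 24 h (right), with delta (red) left of WT (blue); bars are limma estimates and error bars their standard errors. Dppa2 reaches 2.01 in delta and 1.93 in WT by 12 h, while Tcl1 reaches -0.55 in delta and -0.70 in WT by 12 h and -2.32 in delta and -1.77 in WT by 24 h.

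Dppa2 and Dppa4 are neighbours on chromosome 16. Dppa4 (ENSMUSG00000058550) lies at 48283733 to 48294237 of mm10 and Dppa2 (ENSMUSG00000072419) at 48303908 to 48319723, both on the plus strand, 9.67 kb apart. Dppa2 measured 16.999 and 8.12 FPKM at 0 h, 57.6 and 44.3 FPKM at 12 h and 62.7 and 52.9 FPKM at 24 h in delta cells. In WT cells it measured 13.9 and 12.1 FPKM at 0 h, 57.9 and 47.3 FPKM at 12 h and 59.4 and 56.8 FPKM at 24 h. Every library of the induced cells was above every 0 h library, and the 12 and 24 h ranges overlapped. Mean FPKM at 24 h was 4.60 times the 0 h mean in delta and 4.47 times in WT. The log2 change to 24 h was 2.19 ± 0.30 in delta (SE, adjusted p = 0.00158) and 2.08 ± 0.30 in WT (adjusted p = 0.00264). At 12 h it was 2.01 ± 0.30 in delta (adjusted p = 0.00561) and 1.93 ± 0.30 in WT (adjusted p = 0.00834). At 12 h, leaving out delta replicate 1 ended the delta call (adjusted p = 0.0715; 0.00106 to 0.0715 over all alternatives), and leaving out WT replicate 1 ended the WT call (adjusted p = 0.0862; 0.00106 to 0.0862).

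Dppa4 gave 48.2 and 32.9 FPKM at 0 h, 98.7 and 90.3 FPKM at 12 h and 110.9 and 102.2 FPKM at 24 h in delta cells. In WT cells it gave 39.2 and 33.0 FPKM at 0 h, 94.995 and 82.3 FPKM at 12 h and 97.9 and 105.6 FPKM at 24 h. The groups at 12 h and at 24 h did not overlap with 0 h in either genotype, and both 24 h libraries were above both 12 h libraries in each genotype. The log2 change to 24 h was 1.40 ± 0.21 in delta (adjusted p = 0.00262) and 1.47 ± 0.21 in WT (adjusted p = 0.00263). At 12 h it was 1.22 ± 0.21 in delta (adjusted p = 0.0104) and 1.27 ± 0.21 in WT (adjusted p = 0.0113). Leaving out delta 12 h replicate 1 (adjusted p = 0.112) or replicate 2 (0.0737) ended the delta 12 h call, within 0.00114 to 0.112 over all alternatives. The WT 12 h call was lost without WT 12 h replicate 1 (adjusted p = 0.114) or replicate 2 (0.0541) and without WT 0 h replicate 2 (0.0574), within 0.00157 to 0.114.

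The rise of the heterodimer's genes was early in both genotypes. Of the log2 change at 24 h, Dppa2 had made 91.5% in delta and 92.9% in WT by 12 h, and Dppa4 87.8% in delta and 86.5% in WT. Between 12 and 24 h the log2 change of Dppa2 was 0.19 in delta and 0.15 in WT, and that of Dppa4 was 0.17 in delta and 0.20 in WT, with no call. Dppa2 changed more than Dppa4, so their FPKM ratio moved: it was 0.247 to 0.353 in delta and 0.354 to 0.368 in WT at 0 h, and 0.490 to 0.584 in delta and 0.538 to 0.610 in WT over the 4 later libraries of each genotype. The lowest later ratio lay above the highest 0 h ratio in each genotype. Reads from processed pseudogenes make both genes uncertain, as the counting could split them. Gm9788 matched Dppa2 at 99.3% over 906 bases and reached 3.87 FPKM, and Gm14058 matched Dppa4 at 98.9% over 735 bases and reached 6.27 FPKM.

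Lists of related genes were read against all genes tested, of which 7.58% rose and 7.8% fell in delta cells and 5.27% rose and 4.94% fell in WT cells from 0 to 24 h, with median log2 changes of -0.05 and -0.03. Known targets of DPPA2 and DPPA4 and other 2-cell-stage genes gave little signal. Of 22 listed genes in the table, 2 passed the filter and neither was called from 0 to 24 h in either genotype. Pramel6, of the Prame-like family, changed by -0.43 ± 0.52 in delta and -1.13 ± 0.52 in WT on the log2 scale. Syce1, a synaptonemal complex gene, changed by 0.67 ± 0.36 in delta and 0.50 ± 0.36 in WT. The list summed to 10.4 to 18.4 FPKM in delta and 11.7 to 12.6 FPKM in WT at 24 h, and to 4.49 to 10.4 FPKM in delta and 9.69 to 12.0 FPKM in WT at 0 h. At 2 tested genes, the list says little about the heterodimer's targets in these cells.

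Dppa3 (ENSMUSG00000046323, chromosome 6, 122626410 to 122630272, plus strand) fell. It measured 26.0 and 52.8 FPKM at 0 h, 10.1 and 14.6 FPKM at 12 h and 7.28 and 7.80 FPKM at 24 h in delta cells. In WT cells it measured 67.2 and 61.5 FPKM at 0 h, 20.4 and 15.05 FPKM at 12 h and 12.8 and 9.49 FPKM at 24 h. Within each genotype the 3 times did not overlap. A lower level in these bulk samples cannot be told apart from fewer cells that express the gene. The log2 change to 24 h was -2.16 ± 0.33 in delta (adjusted p = 0.00257) and -2.44 ± 0.33 in WT (adjusted p = 0.00180). At 12 h it was -1.54 ± 0.33 in delta (adjusted p = 0.0240) and -1.82 ± 0.33 in WT (adjusted p = 0.0166), or 71.3% of the later change in delta and 74.4% in WT. The step from 12 to 24 h was -0.62 in delta and -0.63 in WT and was not called.

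The 12 h calls of Dppa3 were lost when some single libraries were left out, while the log2 change stayed negative, at -1.29 and -1.78 in delta without either 12 h library and at -2.02 to -1.61 in WT without any 1 library. In delta the call was lost without 12 h replicate 1 (adjusted p = 0.200) or 12 h replicate 2 (0.0791), and without a filter on low values (0.0552), within 0.00489 to 0.200 over all alternatives. In WT it was lost without 0 h replicate 1 (adjusted p = 0.0854), 0 h replicate 2 (0.0559), 12 h replicate 1 (0.0740) or 12 h replicate 2 (0.115), within 0.00317 to 0.115. Near-identical copies of Dppa3 were weak: Dppa3-ps, 98.2% identical over 451 bases, reached 0.875 FPKM.

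Tcl1 (ENSMUSG00000041359, chromosome 12, 105216750 to 105222793, minus strand) fell, on the log2 scale mostly after 12 h. It measured 61.5 and 67.4 FPKM at 0 h, 41.8 and 45.3 FPKM at 12 h and 11.6 and 12.5 FPKM at 24 h in delta cells. WT cells had 75.2 and 70.5 FPKM at 0 h, 44.2 and 44.6 FPKM at 12 h and 19.6 and 21.7 FPKM at 24 h. No 2 times overlapped within a genotype, and the replicates lay close together. The log2 change to 24 h was -2.32 ± 0.15 in delta (adjusted p = 5.14e-05) and -1.77 ± 0.15 in WT (adjusted p = 0.000229). By 12 h it had made 23.8% of that change in delta and 39.6% in WT.

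From 0 to 12 h the log2 change of Tcl1 was -0.55 ± 0.15 in delta (adjusted p = 0.0647, not called) and -0.70 ± 0.15 in WT (adjusted p = 0.0373). From 12 to 24 h it was -1.77 ± 0.15 in delta (adjusted p = 0.00219) and -1.07 ± 0.15 in WT (adjusted p = 0.0362). The delta call from 12 to 24 h held without any 1 library (adjusted p at most 0.0455). The WT calls at 12 h and from 12 to 24 h were lost in most such fits, while the change stayed within -0.75 to -0.66 at 12 h and -1.14 to -0.9995 from 12 to 24 h. The WT 12 h call held only without either delta 0 h library; without any 1 of the other 10 libraries its adjusted p was 0.0743 to 0.223, and after quantile normalization 0.187. The WT call from 12 to 24 h likewise was lost without any 1 of those 10 libraries (adjusted p = 0.0524 to 0.328), at a pseudocount of 0.1 (0.0516) and after quantile normalization (0.0624). No near-identical transcript of Tcl1 or of Zfp57 was found in the annotation.

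No listed gene of the AKT pathway was called lower beside Tcl1. Of 14 tested relatives of TCL1 and AKT pathway genes, 4 rose and 0 fell in delta cells and 2 rose and 0 fell in WT cells from 0 to 24 h. Their median log2 change was 0.24 in delta and 0.24 in WT. Eras, a Ras-like activator of phosphoinositide 3-kinase in stem cells, rose by 2.90 in delta (adjusted p = 0.00653) and 2.98 in WT (adjusted p = 0.00747). Foxo1, a transcription factor that AKT inhibits, and Pik3cb, a catalytic subunit of phosphoinositide 3-kinase, rose in delta cells, by 1.46 and 1.16 (adjusted p = 0.0207 and 0.0457). In WT cells their changes were 1.11 and 0.84 (adjusted p = 0.0755 and 0.158).

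Zfp57 (ENSMUSG00000036036, chromosome 17, 37001163 to 37010635, plus strand) was highest at 12 h. It measured 48.6 and 61.1 FPKM at 0 h, 119.3 and 137.2 FPKM at 12 h and 65.4 and 70.7 FPKM at 24 h in delta cells. WT cells had 41.6 and 94.6 FPKM at 0 h, 116.3 and 135.1 FPKM at 12 h and 74.4 and 93.9 FPKM at 24 h. The 12 h libraries lay above all 0 h and 24 h libraries in both genotypes. The log2 change from 0 to 12 h was 1.22 ± 0.34 in delta (adjusted p = 0.0657) and 0.99 ± 0.34 in WT (adjusted p = 0.168). From 12 to 24 h it was -0.90 ± 0.34 in delta (adjusted p = 0.368) and -0.58 ± 0.34 in WT (adjusted p = 0.891). From 0 to 24 h it was 0.31 in delta and 0.41 in WT. None of these was called.

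The WT 0 h replicates of Zfp57 differed more than any other pair of replicates of the gene, with 41.6 FPKM in the library rich in ribosomal protein reads and 94.6 FPKM in the other. Without both 0 h replicate 1 libraries, a choice made after seeing the data, the delta change to 12 h was 1.05 and was called (adjusted p = 0.01004), and so was the change of -0.90 from 12 to 24 h (adjusted p = 0.0192). The delta change to 12 h was also called without delta 0 h replicate 2 (adjusted p = 0.0353), WT 0 h replicate 1 (0.0109) or WT 0 h replicate 2 (0.0107), within 0.01004 to 0.304 over all alternatives. In WT the change to 12 h was called without WT 0 h replicate 2 alone (1.57, adjusted p = 0.0180), within 0.0180 to 0.620, and without WT 0 h replicate 1 it was 0.40.

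Partners of ZFP57 and DPPA3 and other genes of imprint maintenance were mostly not called. Of 16 tested genes, 1 rose and 0 fell in delta cells and 0 were called in WT cells from 0 to 24 h, with a median log2 change of 0.37 in delta and 0.30 in WT. The gene called in delta was Cbx5, which encodes heterochromatin protein HP1 alpha, at 0.71 (adjusted p = 0.0221) in delta and 0.39 (adjusted p = 0.191) in WT. Trim28, the corepressor that ZFP57 recruits, changed by 0.66 in delta (adjusted p = 0.0986) and 0.43 in WT (adjusted p = 0.328). Uhrf1, the partner of DPPA3, changed by 0.29 in delta and 0.21 in WT, and neither was called. Among 22 tested imprinted genes, 5 rose and 0 fell in delta and 4 rose and 0 fell in WT, with a median of 0.25 in delta and 0.31 in WT. Snrpn, Cdkn1c, Peg3 and Mest rose in both genotypes, Snrpn by 2.10 in delta (adjusted p = 0.00156) and 1.79 in WT (adjusted p = 0.00444). Between genotypes, 1 of the 22 imprinted genes was called lower in delta at 0 h and 1 at 12 h, against 0.00715% and 0.0143% of all genes. The lowest log2 differences of the list were -2.19 at 0 h and -2.76 at 12 h.

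Dppa5a (ENSMUSG00000060461, chromosome 9, 78367052 to 78368177, minus strand) was among the 10 highest genes of the table by mean FPKM in every group. It measured 6411 and 2188 FPKM at 0 h, 2922 and 2739 FPKM at 12 h and 2406 and 1959 FPKM at 24 h in delta cells. The WT values were 4800 and 2094 FPKM at 0 h, 2468 and 2364 FPKM at 12 h and 2344 and 1962 FPKM at 24 h. At 0 h the replicate 1 libraries were far above the replicate 2 libraries, and these are the libraries with 13.6% (delta) and 11.6% (WT) of reads in ribosomal protein genes. The part of that difference in the Dppa5a values was not tested. As a share of reads, which the FPKM scaling does not enter, Dppa5a at 0 h was 0.300% and 0.135% in delta and 0.274% and 0.129% in WT. The log2 change to 24 h was -0.79 ± 0.53 in delta (adjusted p = 0.347) and -0.56 ± 0.53 in WT (adjusted p = 0.574). Without delta 0 h replicate 2 the delta change was -1.56 (adjusted p = 0.0271), and without delta 0 h replicate 1 it was -0.01, within adjusted p of 0.0271 to 0.992 over all alternatives. Without both 0 h replicate 1 libraries the change to 12 h was 0.37 in delta and 0.21 in WT.

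**Figure D3:**
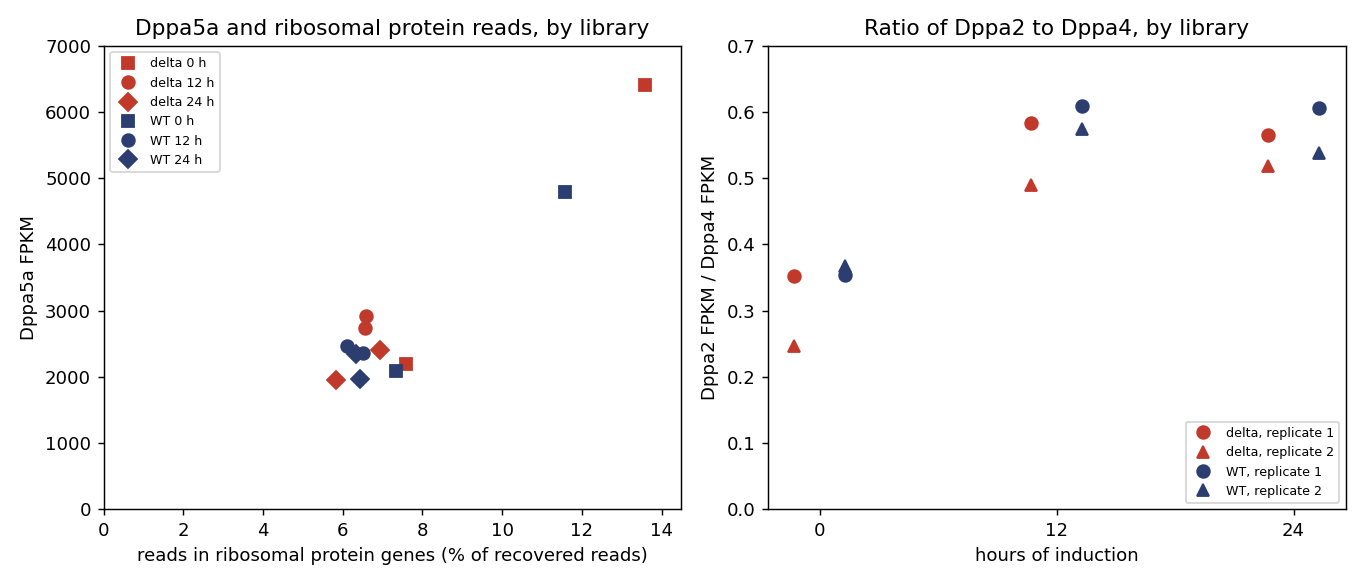
Left, Dppa5a FPKM against the share of recovered reads in ribosomal protein genes for each of the 12 libraries, delta in red and WT in blue, squares for 0 h, circles for 12 h and diamonds for 24 h; the pair at 13.6% (delta) and 11.6% (WT) has the highest Dppa5a, 6411 and 4800 FPKM. Right, the ratio of Dppa2 to Dppa4 FPKM against hours of induction, which is at most 0.368 at 0 h and at least 0.490 later.

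Dppa5a too shares sequence with other genes: 10 transcripts of other genes matched it at 90% or more over at least 100 bases, and the highest of the 8 in the table, Pigp, reached 12.9 FPKM. Ooep, a KH-domain gene of the oocyte that lies 7.93 kb from Dppa5a, changed by -0.74 in delta (adjusted p = 0.130) and -0.40 in WT (adjusted p = 0.466) to 24 h. Among the 5 tested relatives of DPPA5 and genes of the maternal KH-domain group, 2 rose and 0 fell in delta and 1 rose and 1 fell in WT. Khdc3, another KH-domain gene, changed by -1.66 in delta (adjusted p = 0.0717) and fell by 2.09 in WT (adjusted p = 0.0409). Nlrp14, an oocyte gene of the NLR family, rose by 1.00 in delta (adjusted p = 0.00425) and 0.75 in WT (adjusted p = 0.0218).

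Genotypes were compared at each time to ask whether deletion of the Tcf15 regulatory region alters these genes. None of the 6 was called at 0, 12 or 24 h, where 0.00715%, 0.0143% and 0.00715% of all genes were called. None was called in the average over times either (0.0143%). For the change from 0 to 12 h or to 24 h the fit called 0% of genes. The lack of a call there does not show that the changes were equal. At an unadjusted p under 0.05 the counts were 1 of the 6 and 282 of all genes at 0 h, 0 of the 6 and, of all genes, 70 higher and 54 lower at 12 h, 1 and 214 at 24 h and 2 and 605 in the average. For the changes they were 0 and 86 to 12 h and 1 and 138 to 24 h. With voom weights on recovered reads 0 of the 6 were called as well. The fit's power is limited at 2 libraries a group. Dppa2, Dppa4, Zfp57 and Dppa5a averaged -0.06 (95% interval -0.45 to 0.33), 0.10 (-0.18 to 0.38), -0.16 (-0.59 to 0.28) and 0.16 (-0.53 to 0.85) in delta minus WT on the log2 scale.

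Of the 6 genes, Tcl1 and Dppa3 had the largest averaged genotype differences. At 24 h Tcl1 measured 11.6 and 12.5 FPKM in delta and 19.6 and 21.7 FPKM in WT, a mean ratio of 0.584. The log2 difference was -0.73 ± 0.15 (unadjusted p = 0.00099, adjusted p = 1), the sixth smallest p of all genes, and both same-numbered pairs gave it, at -0.71 and -0.75. At 0 h the difference was -0.18 and at 12 h -0.03. The fall from 0 to 24 h was larger in delta by 0.55 ± 0.22 (unadjusted p = 0.0305, adjusted p = 1). With the replicate number as a block within each time, the 24 h difference had an adjusted p of 0.445, within 0.169 to 1 over all alternatives.

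Dppa3 was lower in each delta library than in each WT library of the same time. The log2 difference was -0.78 ± 0.33 at 0 h, -0.50 ± 0.33 at 12 h and -0.49 ± 0.33 at 24 h, and -0.59 ± 0.19 on average (unadjusted p = 0.0119, adjusted p = 1). The pairs did not share its size: replicate 1 gave -1.34, -0.95 and -0.73 at 0, 12 and 24 h, and replicate 2 gave -0.22, -0.04 and -0.25. The average was -0.42 without delta 0 h replicate 1 and -0.76 without delta 0 h replicate 2.

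**Figure D4:**
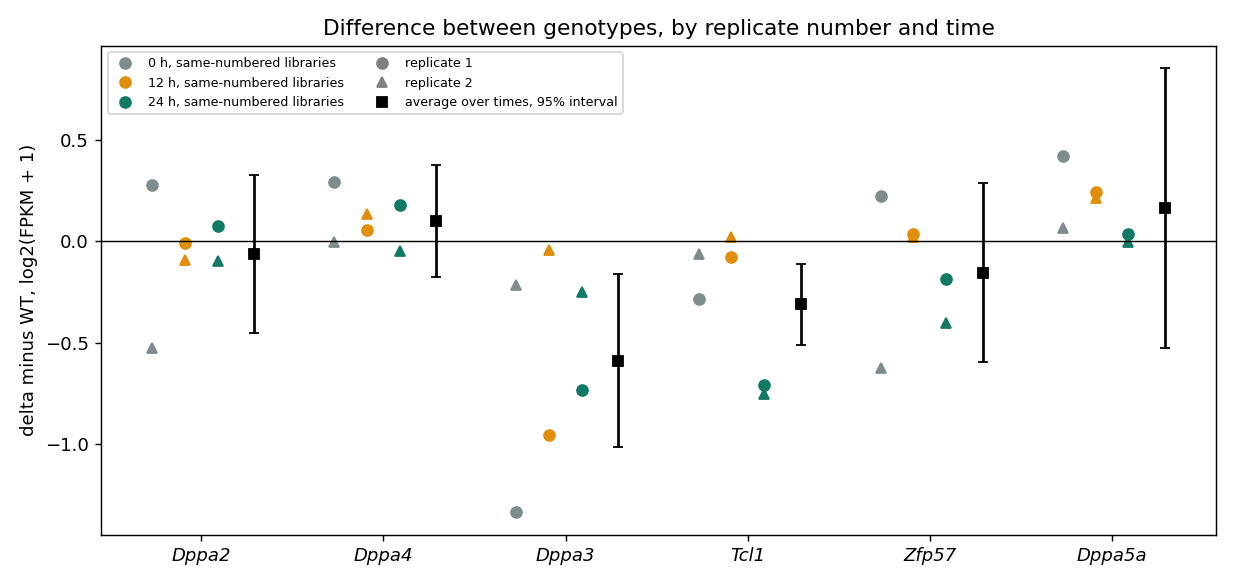
Difference of delta minus WT on the log2(FPKM + 1) scale for each gene, within same-numbered libraries (circles, replicate 1; triangles, replicate 2) at 0, 12 and 24 h, with the average over times as a black square and its 95% limma interval. The pairs of Tcl1 at 24 h lie together at -0.71 and -0.75, and those of Dppa3 lie apart, from -1.34 to -0.04.

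The 6 genes were read beside markers of the naive and formative states, from lists chosen with results of these data known. Naive pluripotency genes fell in 13 of 20 cases and rose in 2 in delta cells from 0 to 24 h, and fell in 12 and rose in 1 in WT cells, with a median log2 change of -2.09 in delta and -1.71 in WT. Formative genes rose in 15 of 15 cases in delta and 13 of 15 in WT, with medians of 3.53 in delta and 3.01 in WT. Among 22 tested genes of the early embryo and oocyte, 5 rose and 7 fell in delta and 4 rose and 6 fell in WT, so that list, like the 6 genes, held both directions. Dnmt3l, a cofactor of DNA methyltransferases, rose by 3.58 in delta and 3.50 in WT. Of 14 tested primordial germ cell markers, a list to which Dppa3 is commonly added, 1 rose and 5 fell in delta and 2 rose and 5 fell in WT. Tfap2c and Prdm14, transcription factors of germ cell specification, fell by 3.34 and 2.60 in delta and by 3.34 and 2.28 in WT.

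The genes most like each of the 6 were taken by Pearson's r of log2(FPKM + 1) over the 12 libraries, among 6970 genes, as a description. Libraries of a time point share that time, and the Dppa5a values of the 0 h replicate 1 libraries lie far above the rest, so r takes in both. For Dppa2 the nearest were Dusp6 (r = 0.993), which encodes an ERK phosphatase, and Utf1 (0.988), a chromatin-associated stem cell gene; Utf1 measured 654.5 and 608.6 FPKM in delta and 625.5 and 597.5 FPKM in WT at 24 h. Utf1 was also near Dppa4 (0.988), after Tor3a (0.993) and Pdzd4 (0.991). Dppa2 and Dppa4 had r = 0.989 with each other, and Dppa3 had r = -0.913 with Dppa2 and 0.848 with Tcl1. For Dppa3 the nearest gene was Grsf1 (0.972), for Zfp57 Gltscr1l (0.959) and for Dppa5a Sugt1 (0.987).

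The gene nearest to Tcl1 was Nanog (r = 0.984), a transcription factor of naive pluripotency. Nanog measured 417.5 and 254.8 FPKM at 0 h, 191.0 and 197.4 FPKM at 12 h and 31.1 and 33.4 FPKM at 24 h in delta cells. WT cells had 335.3 and 281.9 FPKM at 0 h, 197.6 and 192.9 FPKM at 12 h and 63.3 and 68.5 FPKM at 24 h. At 0 h Tcl1 was lower in the delta libraries, while Nanog overlapped between genotypes. At 12 h the genotypes overlapped for both genes, and at 24 h both genes were lower in the delta libraries. Nanog was picked by its r with Tcl1 over these same libraries, so a shared pattern is no separate evidence. Nanog also lies 77.2 kb from Dppa3. Gdf3, a TGF-beta family ligand 16.3 kb from Dppa3, changed by -0.57 in delta (adjusted p = 0.327) and -0.51 in WT (adjusted p = 0.454) to 24 h. Of 33 tested genes within 200 kb of the 6, the 6 themselves aside, 3 rose and 4 fell in delta and 1 rose and 2 fell in WT from 0 to 24 h. Nanog and Slc2a3, a glucose transporter gene near Dppa3, fell in both genotypes, and Ddx43, an RNA helicase gene near Dppa5a, rose in both. Morc1, a germline gene 111.5 kb from Dppa2, changed by -0.37 in delta and -0.14 in WT, and neither was called.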

How the data were processed

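Values were FPKM, deposited by the authors in 1 table (47729 genes). Named in the submitters' processing notes are cutadapt, STAR 2.5.2b, featureCounts 1.5.1, edgeR 3.16.5 and mm10, without roles; whether counting used strand is not stated there. Per the labels' protocols, libraries came from oligo-dT selected RNA. At the annotated length, FPKM values were whole multiples of 1 read (tolerance 0.01) for 22949 of 28657 genes above 0. For 5708 genes a length that made the values whole was searched for, so wholeness is no check there. The recovered reads gave the depth, read shares and a voom alternative.

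In R 4.3.3, limma 3.58.1 with a variance trend was fitted to log2(FPKM + 1) of the 13981 genes, with 6 group means, no block, 6 residual and 3.11 prior degrees of freedom; all p are 2-sided. The pseudocount of 1 understates changes of low genes. On simulated data, 19 of 100 genes changed 2-fold and 100 of 100 changed 8-fold from WT 0 to 24 h were recovered among 13346 genes. In the same comparison 16 unchanged genes were called. The simulation gave all genes and libraries the same dispersion, without the larger differences between 0 h replicates. Same-numbered delta and WT libraries, numbered in the titles, deviated together (r = 0.70, 0.28 and 0.37 at 0, 12 and 24 h). Other pairs of groups gave r from -0.07 (delta 0 h with WT 12 h) to 0.46 (WT 12 h with WT 24 h). The values at 12 and 24 h thus lay within the range of the other pairs. Positions are from GENCODE M21 (mm10). The genes and lists were chosen with earlier results of these data known. Named genes were the 6, Tcf15, up to 4 genes per list with the smallest adjusted p and up to 4 most alike genes with a mean of at least 5 FPKM; some named by this rule are not reported here. Alternatives changed the pseudocount, filter, scaling, block, variance model or libraries.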

Additional observations from a re-analysis of the deposited data

Results flagged for a closer look

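The difference of delta from WT in Zfp57 went opposite ways at 12 h and at 24 h: same-numbered pairs gave 0.04 and 0.02 on the log2 scale at 12 h and -0.18 and -0.40 at 24 h. The genotype difference at 12 h minus that at 24 h was 0.32, and it was not tested. At 12 h Zfp57 overlapped between genotypes, with 119.3 and 137.2 FPKM in delta and 116.3 and 135.1 FPKM in WT.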

How the results depend on the processing

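Over 49 single-gene values, 435 of 453 recomputations (those that leave out 1 library aside) kept direction and call; 9 turned direction, 8 of them of Dppa5a, 4 lost a call and 5 gained one. Quantile normalization turned Dppa5a to 0.0855 (WT, 12 h and 24 h), 0.91 and 0.31 (delta, 12 h and 24 h) and to 0 (WT, 12 to 24 h). Without both 0 h replicate 1 libraries it was 0.37 in delta and 0.21 in WT at 12 h and 0.0345 in WT at 24 h, and Zfp57 was -0.18 in WT at 24 h. The cause was not tested. The count of called genes from 12 to 24 h in WT fell to 0 at a pseudocount of 0.1 and under quantile normalization. In delta it was 5 at 12 h with the replicate block and without both 0 h replicate 1 libraries, and 2 from 12 to 24 h without those libraries. The pairing by replicate block changed no other call. Leaving out 1 library gave 0 to 5 calls in delta and 0 to 4 in WT at 12 h, 4 to 5 in delta and 4 in WT at 24 h, and 1 in delta and 0 to 1 in WT from 12 to 24 h; with a lone library, its spread was assumed to be that of the other groups. Without delta 12 h replicate 1 or 2 the delta 12 h count was 0 or 1, and without delta 0 h replicate 2 it was 5; without WT 12 h replicate 1 or 2 the WT 12 h count was 0 or 1, and without either WT 0 h library 2. Without 1 library the averaged genotype difference ranged from -0.23 to 0.10 for Dppa2, -0.10 to 0.42 for Dppa5a and -0.35 to 0.0395 for Zfp57, the Tcl1 difference at 12 h from -0.0838 to 0.0273, the Dppa2 change in delta from 12 to 24 h from -0.00033 to 0.37, the Dppa5a change from -1.18 to 0.37 (delta, 12 h), -0.99 to 0.21 (WT, 12 h) and -1.16 to 0.0345 (WT, 24 h), and the Zfp57 change in WT to 24 h from -0.18 to 0.99. With 2 libraries a group power was limited: on simulated data, 19 of 100 genes changed 2-fold from WT 0 to 24 h were recovered among 13346 genes. That comparison also called 16 unchanged genes.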
